A study of Mus musculus with 16 samples.

Results

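Chemokines are small secreted proteins that draw leukocytes along a gradient towards their source. They bind G protein-coupled receptors on the target cell, and several ligands can share a receptor. The 9 chemokine genes described here, Ccl2, Ccl3, Ccl4, Ccl5, Ccl6, Ccl7, Ccl9, Cxcl2 and Cxcl10, are ones that macrophages can transcribe, and they were taken by symbol from a table of 15871 entries. All 9 were present, and all 9 passed the filter on low counts. The RNA came from peritoneal macrophages of 8-week-old C57BL/6 mice with a wild-type genotype, collected after an intraperitoneal injection of 6% soluble starch, a sterile irritant that brings macrophages into the cavity. The 16 libraries formed 4 groups of 4, each kept for 48 h in one medium. H_O had 33 mmol/L glucose with oxidised low-density lipoprotein (ox-LDL) at a dose the labels write as 50 mg/ml, a unit that is in doubt. L_O had the same ox-LDL in low glucose, H_C had 33 mmol/L glucose alone, and L_C had low glucose with 27.5 mM mannitol, an osmotic control. Only the L_C label names mannitol, so in every comparison with L_C its presence cannot be told apart from the absence of the other addition. The L_O label names no osmotic control, so in H_O against L_O glucose itself cannot be told apart from its osmotic load. The difference between the ox-LDL effects in high and low glucose carries both limits. The labels do not say whether replicates came from separate animals or cultures, and p-values then measure the spread between these libraries, which may be technical.

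In macrophages, the NF-kB pathway switches on genes such as Cxcl2, Ccl2, Ccl3 and Ccl4 after a danger signal, and interferon signalling through STAT and IRF factors drives Cxcl10 and adds to Ccl5. Foam cells, the lipid-laden macrophages of atherosclerotic plaques, are made in culture with ox-LDL, and Ccl2 is known for recruiting monocytes into such plaques. Ccl6 and Ccl9 are made constitutively by many mouse macrophages.

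Several of the Ccl genes lie close together. On mouse chromosome 11 (mm10, GENCODE M21), Ccl2 occupies 82035571 to 82037453 and Ccl7 82045712 to 82047525, a gap of 8.26 kb. Further along the same chromosome, Ccl5 lies at 83525778 to 83530518, Ccl9 at 83572919 to 83578636, Ccl6 at 83587882 to 83593087, Ccl3 at 83647844 to 83649355 and Ccl4 at 83662584 to 83664683. Ccl9 and Ccl6 are 9.24 kb apart and Ccl5 lies 42.4 kb from Ccl9. The CXC genes are on chromosome 5, Cxcl2 at 90903871 to 90905938 and Cxcl10 at 92346638 to 92348889, a gap of 1440 kb.

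Promoters from RefSeq (build GRCm38.p6) were matched for 5 of the 9 genes, and those of Ccl2, Ccl4, Ccl5 and Ccl7 were not matched. The 250 bases before the transcription start of 4 of them are shown because these genes differed in how their RNA moved with ox-LDL: Cxcl10 fell in low glucose, Ccl9 rose at both glucose levels, Ccl6 rose in high glucose, and Cxcl2 passed no test. Cxcl10 lies on the minus strand at chr5:92348890-92349139, Cxcl2 on the plus strand at chr5:90903649-90903898, Ccl9 on the minus strand at chr11:83578637-83578886 and Ccl6 on the minus strand at chr11:83593088-83593337, each read 5′ to 3′ on its own strand. Starts here are those of RefSeq. For Cxcl2 the window runs past the GENCODE start at 90903871, so its last bases fall inside the gene as placed above. Capitals mark matches, on either strand, to an NF-kB pattern (GGGNNNTTCC), an interferon-stimulated response element pattern (GAAA, any 2 bases, then GAAA) or an AP-1 pattern (TGANTCA).
Cxcl10: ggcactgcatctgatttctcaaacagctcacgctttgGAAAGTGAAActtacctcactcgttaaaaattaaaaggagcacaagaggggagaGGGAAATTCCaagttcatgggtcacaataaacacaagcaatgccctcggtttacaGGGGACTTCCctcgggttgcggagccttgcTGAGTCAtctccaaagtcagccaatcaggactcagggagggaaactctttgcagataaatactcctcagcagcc
Cxcl2: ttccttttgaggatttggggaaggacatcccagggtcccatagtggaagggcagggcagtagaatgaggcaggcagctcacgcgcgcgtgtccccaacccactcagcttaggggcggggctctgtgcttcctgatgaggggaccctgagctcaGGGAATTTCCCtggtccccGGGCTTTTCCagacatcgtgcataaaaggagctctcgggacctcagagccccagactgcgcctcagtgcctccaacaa
Ccl9: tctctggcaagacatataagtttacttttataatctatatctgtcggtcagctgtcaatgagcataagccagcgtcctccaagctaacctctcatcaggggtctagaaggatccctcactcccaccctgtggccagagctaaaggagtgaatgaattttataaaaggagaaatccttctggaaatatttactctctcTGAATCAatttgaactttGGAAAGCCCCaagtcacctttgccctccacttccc
Ccl6: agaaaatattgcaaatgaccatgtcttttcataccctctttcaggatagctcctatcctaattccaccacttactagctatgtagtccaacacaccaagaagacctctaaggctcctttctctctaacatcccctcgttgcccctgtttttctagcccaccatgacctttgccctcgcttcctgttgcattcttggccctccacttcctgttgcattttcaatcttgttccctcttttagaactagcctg
The promoter of Cxcl10 held 2 NF-kB matches, 1 interferon-type match and 1 AP-1 match. That of Cxcl2 held 3 NF-kB matches, of which GGGAATTTCC and GGAATTTCCC overlap by all but a base on opposite strands. Ccl9 had an NF-kB match and an AP-1 match within 53 bases of its start. The windows of Ccl6 and Ccl3 had no match to any of the patterns. Over 32851 mouse promoters, windows of the same 250 bases held the NF-kB pattern in 4.65%, the interferon pattern in 2.98% and the AP-1 pattern in 6.75%. A match describes letters and not a bound site.

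AU-rich stretches in the 3′ untranslated region, which bind proteins that shorten the life of an mRNA, were counted as well. The heptamer TATTTAT occurred 7 times in the 734-base 3′ untranslated region of Cxcl2, and 19.8% of 1776 such regions of similar length held it at least once. Ccl3 and Ccl4 had 1 copy each (10.9% and 8.87% of regions of similar length held it), and the other 6 genes had none. A 30-base stretch of Cxcl2 that starts at position 123 of this region is shown, with 4 of the heptamers, which overlap in pairs, in capitals.
Cxcl2: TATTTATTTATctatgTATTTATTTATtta

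Library totals lay between 32596640 and 41712885 counts. Levels are given as CPM, counts scaled to a common library size with TMM factors, and a level set against another gene is also divided by the length of its principal transcript in kilobases. The macrophage markers Adgre1, Csf1r, Cd68, Lyz2, Itgam, Mertk and Fcgr1 had reads in every library, with a summed level between 17139 and 20615 CPM. The library L_C replicate 4 stood apart, with 3.71% of its counts from mitochondrial genes against 1.48 to 2.30% in the other 15 libraries, and with 1.41% from ribosomal protein genes against 1.62 to 1.93%. Results that turn on it are given without it.

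Ccl6 was by far the most abundant of these mRNAs. Per kilobase it averaged 698 ± 91.9 CPM in H_O, 656 ± 66.1 in L_O, 406 ± 28.6 in H_C and 548 ± 70.9 in L_C (mean ± SD, n = 4 each). Ccl6 alone supplied between 84.5 and 92.6% of the summed CPM of the 9 genes in a library. Next per kilobase came Ccl3 and Ccl5. In H_C, Ccl5 stood above Ccl3, at 64.7 ± 5.84 against 37.9 ± 3.36 CPM per kilobase, with no overlap between libraries. In H_O the order was the other way round, with Ccl5 at 23.1 ± 4.40 and Ccl3 at 32.4 ± 2.42, and L_O likewise had Ccl5 at 13.4 ± 1.16 and Ccl3 at 29.5 ± 1.54. In L_C both were level within their spread, at 41.2 ± 7.07 for Ccl5 and 42.1 ± 12.8 for Ccl3. Ccl4, Ccl9 and Ccl2 followed in every group, and in H_O and L_O the libraries of Ccl9 overlapped those of Ccl2, as did those of Ccl2 and Ccl4. In L_O the libraries of Ccl5 and Ccl9 overlapped too. Ccl7, Cxcl2 and Cxcl10 were the scarcest in every group, and the libraries of Cxcl2 and Cxcl10 overlapped except in H_O. Cxcl10 had 0 to 40 reads in a library, Cxcl2 13 to 77 and Ccl7 19 to 89, so counting error weighs heavily on these genes.

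**Figure D1:**
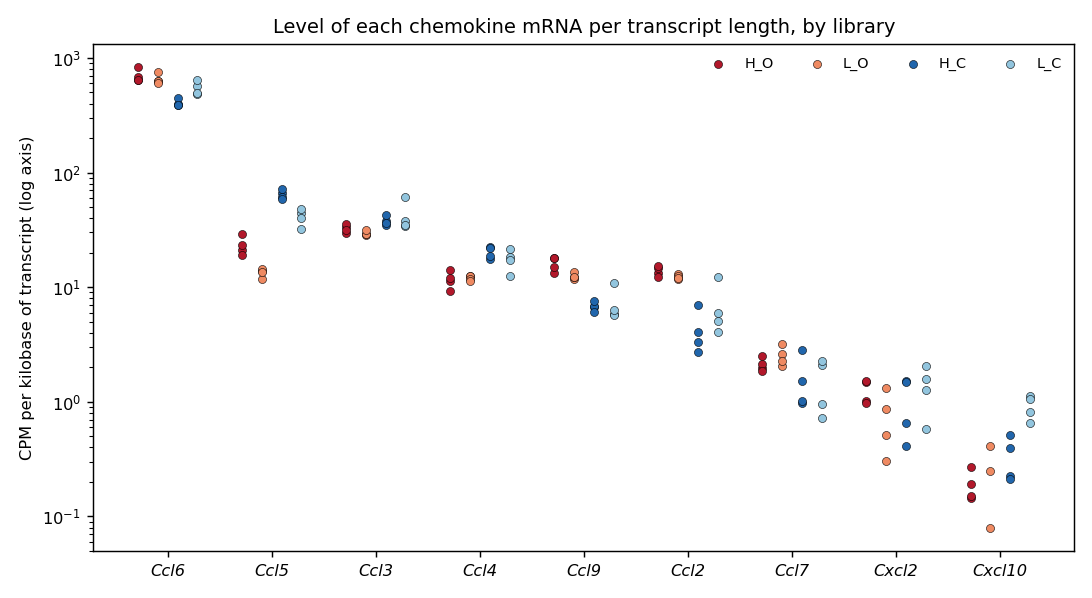
Level of each chemokine mRNA as CPM per kilobase of its principal transcript, on a log axis, with 1 point per library and 4 libraries in each of H_O, L_O, H_C and L_C. Ccl6 lies above all other genes in every library, Ccl5 and Ccl3 change places between the groups with and without ox-LDL in high glucose, and Cxcl10 in L_O replicate 1, which had no read, has no point.

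**Figure D2:**
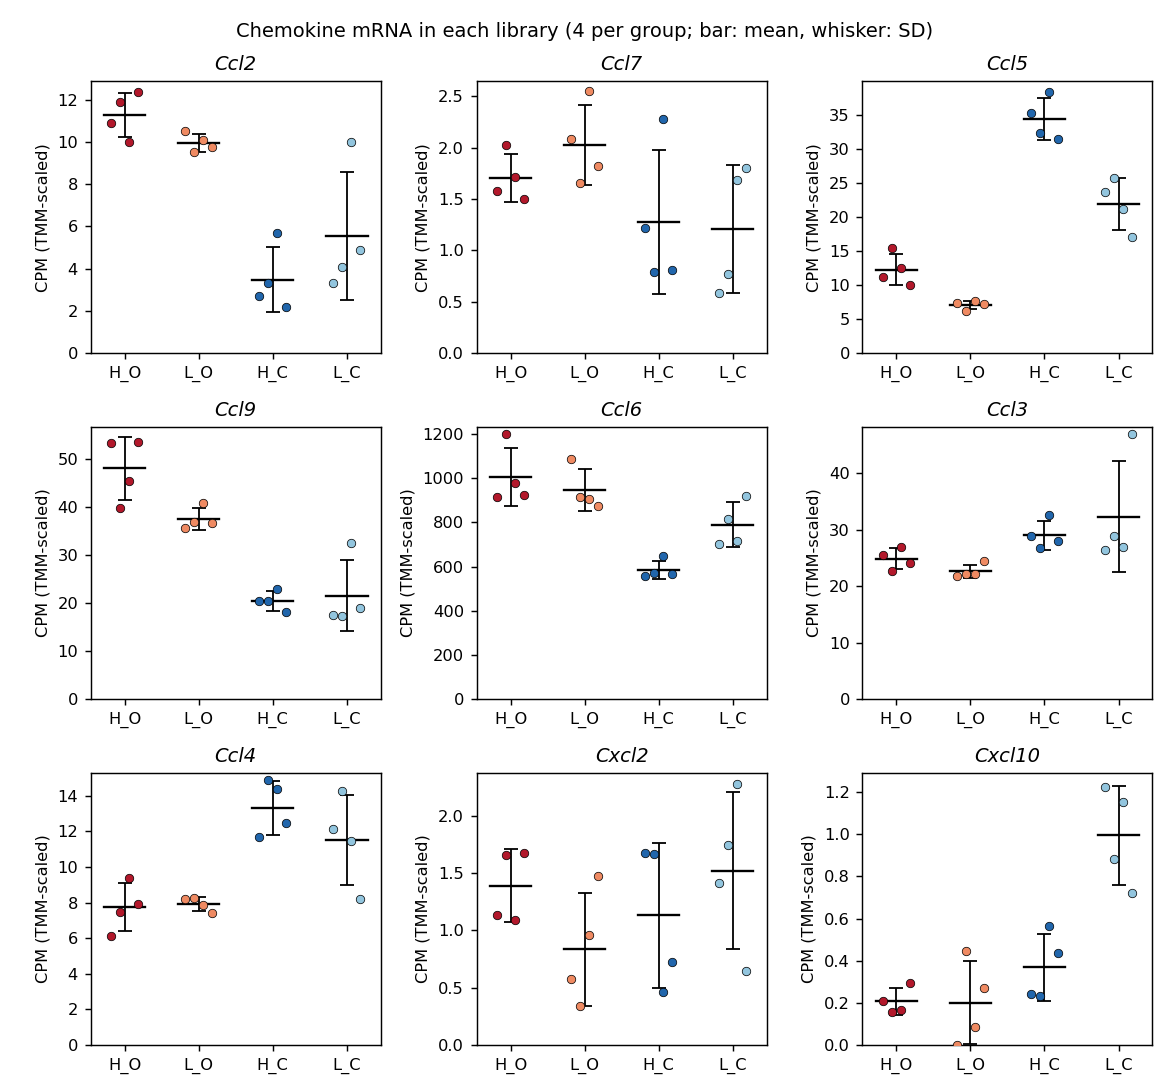
CPM of each chemokine mRNA in each library (points), with the mean (bar) and SD (whisker) of each group of 4, on linear axes that start at 0. By the group means, Ccl2 and Ccl9 sit highest in H_O and L_O, Ccl5 in H_C and Cxcl10 in L_C.

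Ccl2, the main ligand of the monocyte receptor CCR2, rose with ox-LDL at both glucose levels, with a call in low glucose that most single libraries could undo. The H_O libraries held 10.9, 11.9, 10.0 and 12.4 CPM of Ccl2, against 2.71, 3.33, 5.71 and 2.21 CPM in H_C. Every H_O library lay above every H_C library, and Ccl2 rose by 1.69 ± 0.29 on the log2 scale, or 3.22-fold (± SE, edgeR quasi-likelihood test, adjusted p = 0.000293). In low glucose, Ccl2 stood at 10.5, 9.52, 10.1 and 9.74 CPM in L_O, against 3.31, 4.09, 10.0 and 4.86 CPM in L_C. L_C replicate 3 reached the level of the L_O libraries and the other L_C libraries did not. The log2 fold change there was 0.84 ± 0.28 (adjusted p = 0.0359), a call that was lost on leaving out any single library of these groups other than L_C replicate 3 (adjusted p from 0.0589 to 0.104). Without L_C replicate 3 the log2 fold change was 1.28, with an adjusted p of 0.000536. Mean Ccl2 was close in the 2 groups with ox-LDL, 11.3 ± 1.05 CPM in H_O and 9.96 ± 0.428 CPM in L_O, and that difference did not pass (log2 fold change 0.18 ± 0.28, 95% interval -0.42 to 0.78). H_C against L_C gave -0.67 ± 0.29 for Ccl2 and did not pass (adjusted p = 0.152). That value was -1.004 without H_C replicate 3 (adjusted p = 0.0306) and -0.22 without L_C replicate 3 (adjusted p = 0.597).

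Ccl7, which lies beside Ccl2 and also binds CCR2, was scarce and passed no test. Its libraries held 1.58, 2.02, 1.72 and 1.501 CPM in H_O, against 1.22, 0.788, 2.28 and 0.812 CPM in H_C. They held 2.09, 1.65, 2.55 and 1.82 CPM in L_O, against 0.582, 0.774, 1.69 and 1.80 CPM in L_C. The ox-LDL difference for Ccl7 was 0.41 ± 0.37 in high glucose (adjusted p = 0.505) and 0.74 ± 0.37 in low glucose (adjusted p = 0.166), with 95% intervals of -0.40 to 1.23 and -0.08 to 1.55. Replicate 3 was the highest library of H_C for both Ccl2 and Ccl7.

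Beside the Ccl2 and Ccl7 values stand markers of mesothelial cells and fibroblasts, other cell types of the cavity that can make both. All 9 of those markers were in the table, and their summed level ran from 39.7 to 111 CPM in H_O, 25.6 to 40.2 in L_O, 41.1 to 217 in H_C and 62.8 to 87.5 in L_C. The value of 217 CPM belonged to H_C replicate 3. L_C replicate 3, the L_C library with most Ccl2, had the lowest sum of its group. Msln and Krt19, which mark mesothelium, had no read in 1 to 3 libraries of a group, Msln in L_O and L_C and Krt19 in H_O, L_O and L_C. The sum was lower in every L_O library than in any L_C library, the reverse of mean Ccl2, and it overlapped between H_O and H_C. The part of these cells in the Ccl2 values was not tested. In RNA from a mixed population, fewer cells of a type and less RNA per cell cannot be told apart.

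Ccl9, a ligand of CCR1, rose with ox-LDL at both glucose levels. It stood at 53.5, 39.9, 45.5 and 53.6 CPM in H_O, against 20.4, 20.5, 23.0 and 18.1 CPM in H_C. The groups did not overlap, and Ccl9 was 2.35-fold higher in the fit (log2 fold change 1.23 ± 0.16, adjusted p = 1.29e-05). In low glucose it stood at 35.8, 37.0, 40.8 and 36.7 CPM in L_O, against 17.6, 17.3, 32.6 and 19.04 CPM in L_C. Again there was no overlap, although L_C replicate 3 lay well above its group, and the log2 fold change was 0.80 ± 0.16 (adjusted p = 0.000931). High glucose made no called difference to Ccl9, with or without ox-LDL. H_O against L_O gave 0.36 ± 0.16 (adjusted p = 0.207), which passed without L_C replicate 3, a library outside that pair (adjusted p = 0.0277), and in a fit of those 8 libraries alone (adjusted p = 0.0136).

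Ccl6, the neighbour of Ccl9 and a further ligand of CCR1, rose in H_O against H_C and fell in H_C against L_C. Ccl6 reached 917, 1199, 980 and 925 CPM in H_O, against 557, 570, 646 and 565 CPM in H_C. All H_O libraries were above all H_C libraries, and the rise was 1.72-fold (log2 fold change 0.78 ± 0.10, adjusted p = 7.1e-06). In L_O it stood at 1085, 914, 905 and 875 CPM, against 701, 817, 716 and 921 CPM in L_C. These groups overlapped through L_C replicate 4, and the log2 fold change of 0.26 ± 0.10 did not pass (adjusted p = 0.0545). Without L_C replicate 4 the difference was 0.34 and passed (adjusted p = 0.00513). H_C lay below L_C in every library, and Ccl6 fell by 0.43 ± 0.10 on the log2 scale (adjusted p = 0.00569, and 0.00835 without L_C replicate 4). Between H_O and L_O the value was 0.09 ± 0.10, with a 95% interval of -0.12 to 0.30.

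**Figure D3:**
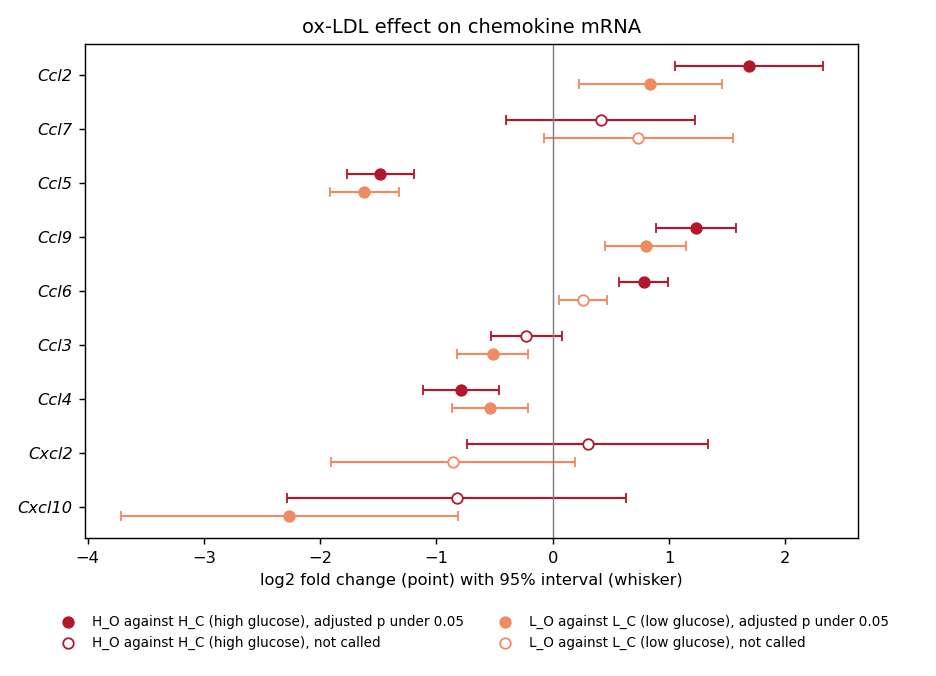
Log2 fold change of each chemokine with ox-LDL in high glucose (H_O against H_C) and in low glucose (L_O against L_C), with 95% intervals from 12 residual degrees of freedom as whiskers. Filled points passed the edgeR threshold and open points did not: Ccl2 and Ccl9 lie to the right and Ccl5 and Ccl4 to the left in both, while Ccl6, Ccl3 and Cxcl10 are filled in 1 of the comparisons.

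Ccl5, a ligand of CCR1 that T and NK cells also make, fell with ox-LDL at both glucose levels. It stood at 11.2, 15.5, 12.5 and 10.1 CPM in H_O, against 35.3, 32.4, 38.4 and 31.5 CPM in H_C. The fall was 1.48 ± 0.13 on the log2 scale (adjusted p = 1.31e-07). In low glucose Ccl5 stood at 7.35, 6.24, 7.68 and 7.24 CPM in L_O, against 23.7, 25.7, 21.2 and 17.0 CPM in L_C. The fall there was 1.62 ± 0.14 (adjusted p = 6.25e-08), and neither pair of groups overlapped.

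Ccl5 was also the only one of the 9 genes that passed in both glucose comparisons, and it was higher in high glucose in each. H_O lay above L_O in every library, with a log2 fold change of 0.79 ± 0.14, or 1.73-fold (adjusted p = 0.00161). H_C lay above L_C in every library, with 0.65 ± 0.13, or 1.57-fold (adjusted p = 0.00261). The 4 group means of Ccl5 were 12.3 ± 2.34 CPM in H_O, 7.13 ± 0.619 in L_O, 34.4 ± 3.11 in H_C and 21.9 ± 3.76 in L_C. Each of these 4 calls held under every alternative setting tried. T and NK cell markers, of which 8 of 10 listed were in the table, summed to 2.81 to 4.20 CPM in H_O, 1.56 to 3.57 in L_O, 2.87 to 5.45 in H_C and 4.32 to 6.96 in L_C. Cd3e, Cd3g and Nkg7 had reads in every library, while Gzma had none in up to 3 libraries of a group. The sum was lower in every L_O library than in any L_C library, and overlapped between H_O and H_C and between H_C and L_C. Its part in the Ccl5 values was not tested.

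Ccl3 and Ccl4, neighbours that attract monocytes and T cells, fell by smaller amounts in the ox-LDL comparisons they passed, Ccl4 in both and Ccl3 in low glucose. Ccl4 stood at 6.11, 7.49, 9.38 and 7.92 CPM in H_O, against 11.7, 14.9, 14.4 and 12.4 CPM in H_C. With no overlap, Ccl4 fell by 0.79 ± 0.15 on the log2 scale (adjusted p = 0.000731). In low glucose it stood at 8.19, 8.26, 7.85 and 7.40 CPM in L_O, against 12.1, 14.3, 11.5 and 8.21 CPM in L_C. L_C replicate 4 reached into the range of L_O, the fall was 0.54 ± 0.15 (adjusted p = 0.0122), and without L_C replicate 2 the adjusted p was 0.0527.

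The fall of Ccl3 in low glucose had a size that rested on 1 library. It stood at 21.8, 22.2, 22.1 and 24.4 CPM in L_O, against 26.4, 28.9, 27.0 and 46.9 CPM in L_C, of which 46.9 was L_C replicate 4. The groups did not overlap, and Ccl3 fell by 0.52 ± 0.14 on the log2 scale (adjusted p = 0.0101). Without L_C replicate 4 it fell by 0.28 (adjusted p = 0.00943), and in a fit of those 8 libraries alone the call was lost (-0.52, adjusted p = 0.0503). In high glucose it stood at 25.5, 22.7, 27.0 and 24.1 CPM in H_O, against 28.9, 26.7, 32.6 and 27.9 CPM in H_C. That difference of -0.23 ± 0.14 did not pass (adjusted p = 0.293). It passed without L_C replicate 4, which is in neither group (-0.23, adjusted p = 0.0201), and in a fit of the 8 high-glucose libraries alone (-0.23, adjusted p = 0.0377). The difference between the effects of ox-LDL on Ccl3 at the 2 glucose levels, 0.29 ± 0.20, did not pass either (adjusted p = 0.741).

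Cxcl10, a ligand of CXCR3 that is named for its induction by interferon gamma, was near the detection limit outside L_C. L_O libraries had 0, 17, 3 and 10 reads, against 40, 32, 39 and 28 reads in L_C. The count of 0 allows a level of up to 0.0907 CPM (3 reads, counting error only). Cxcl10 averaged 0.201 ± 0.199 CPM in L_O and 0.996 ± 0.235 CPM in L_C, and fell by 2.27 ± 0.67 on the log2 scale with no overlap (adjusted p = 0.0171). Without L_O replicate 3 the adjusted p was 0.0613. H_O had 8, 6, 6 and 12 reads of Cxcl10, against 8, 8, 22 and 15 in H_C. This pair overlapped, and the difference of -0.83 ± 0.67 did not pass (adjusted p = 0.448, 95% interval -2.29 to 0.63). H_C lay below L_C in every library, at 0.369 ± 0.159 against 0.996 ± 0.235 CPM, yet the log2 fold change of -1.42 ± 0.64 did not pass (adjusted p = 0.162).

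Cxcl2, the neutrophil attractant that binds CXCR2, passed no test. Its promoter and AU-rich stretch are printed above. Cxcl2 stood at 1.13, 1.66, 1.09 and 1.67 CPM in H_O, against 1.68, 1.66, 0.461 and 0.725 CPM in H_C. In low glucose it stood at 0.574, 0.341, 0.956 and 1.47 CPM in L_O, against 1.41, 1.74, 2.28 and 0.643 CPM in L_C. All groups overlapped. Its ox-LDL difference was 0.30 ± 0.48 in high glucose (adjusted p = 0.729) and -0.86 ± 0.48 in low glucose (adjusted p = 0.216). Cxcl2 shares 5.84% of its 50-base stretches with 1 other gene, so a few of its reads could belong to that gene. Ccl9 shares 1.97% of its stretches with 250 genes in all, and the rest of the 9 chemokines share none. Neutrophil markers, of which 4 of 9 were in the table, summed to 4.01 to 4.82 CPM in H_O, 3.74 to 5.74 in L_O, 3.25 to 4.64 in H_C and 5.30 to 6.00 in L_C. S100a8 made up most of the sums in H_O and L_O, with means of 4.33 and 4.11 CPM. Cxcr2, also in this list, reached at most 0.136 CPM in a library of H_O, 0.517 in L_O, 0.884 in H_C and 2.55 in L_C.

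**Figure D4:**
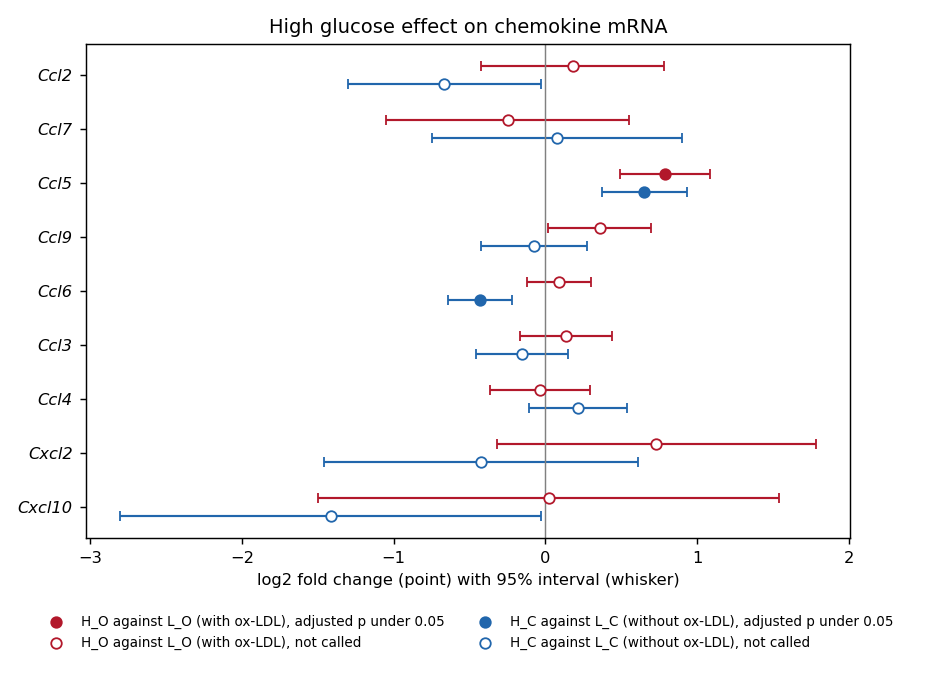
Log2 fold change of each chemokine with high glucose in the presence of ox-LDL (H_O against L_O) and in its absence (H_C against L_C), with 95% intervals as whiskers. Ccl5 is filled, meaning past the edgeR threshold, in both comparisons and Ccl6 in H_C against L_C, and all other points are open.

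Counted over the 9 genes, H_O against H_C gave 5 calls, where 21.9% of all 13527 entries tested were called. Ccl2, Ccl6 and Ccl9 rose (3 of 9, where 10.4% of entries rose) and Ccl4 and Ccl5 fell (2 of 9, where 11.5% fell). L_O against L_C gave 6 calls, where 25.8% of entries were called. Ccl2 and Ccl9 rose (2 of 9, where 12% of entries rose) and Ccl3, Ccl4, Ccl5 and Cxcl10 fell (4 of 9, where 13.8% fell). The median log2 fold change of the 9 genes was 0.30 in high glucose and -0.52 in low glucose, beside 0.0089 and 0.00092 for all entries. Libraries of the groups did not overlap for 5 genes in H_O against H_C, where 29.5% of entries did not overlap, and for 4 in L_O against L_C, where 26.1% did not.

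H_C against L_C gave 2 calls, where 12.8% of entries were called. Ccl5 rose (1 of 9, where 5.02% of entries rose) and Ccl6 fell (1 of 9, where 7.75% fell). H_O against L_O gave 1 call, Ccl5, where 6.11% of entries were called, 2.71% higher and 3.39% lower. The groups did not overlap for Ccl5, Ccl6 and Cxcl10 in H_C against L_C, where 17.4% of entries did not, and for Ccl5 in H_O against L_O, where 17.7% did not. With 2 or fewer of 9 genes called, these shares are near those of all entries.

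The difference between the ox-LDL effects in high and low glucose was tested directly, and the edgeR test called none of the 9 genes, where 0.0148% of all entries were called, 0.00739% in each direction. At an unadjusted p under 0.05 there was 1, Ccl6, whose ox-LDL effect was larger in high glucose by 0.52 ± 0.14 on the log2 scale (unadjusted p = 0.0012, adjusted p = 0.191). DESeq2 called Ccl6 in this test (0.52, adjusted p = 0.0204) and limma-voom called none of the 9. For Ccl2 the difference was 0.85 ± 0.40 (adjusted p = 0.583), for Ccl9 0.43 ± 0.22 (adjusted p = 0.632), and for Ccl5 0.14 ± 0.19 with a 95% interval of -0.27 to 0.55. H_C against L_C shares its L_C libraries with L_O against L_C, so the values of these comparisons are not independent.

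Of 29 other mouse chemokine genes, 19 were in the table and 14 were tested. In H_O against H_C 1 fell and none rose, where 11.5% of all entries fell and 10.4% rose. In L_O against L_C 2 fell and none rose, where 13.8% of all entries fell and 12% rose. Cxcl16, a transmembrane chemokine that also acts as a scavenger receptor for oxidised lipoprotein, fell in both. It averaged 87.8 CPM in H_O against 121 CPM in H_C (log2 fold change -0.46 ± 0.12, adjusted p = 0.00971), and 52.6 CPM in L_O against 112 CPM in L_C (-1.09 ± 0.12, adjusted p = 2.2e-06). Ccl8 fell to 1.70 CPM in L_O against 2.65 CPM in L_C (adjusted p = 0.029), and stood at 2.52 CPM in H_O against 3.64 CPM in H_C (adjusted p = 0.0697). The call for Ccl8 was lost in 9 of 25 alternatives, limma-voom, no scaling and 6 fits without a library among them (adjusted p up to 0.0901). In H_O against L_O, where 2.71% of all entries rose and 3.39% fell, 2 of the 14 rose and none fell. These were Cxcl16 (0.74 ± 0.12, adjusted p = 0.00112) and the neutrophil attractant Cxcl5, at 7.84 CPM in H_O against 2.47 CPM in L_O (adjusted p = 0.0496). The call for Cxcl5 was lost under limma-voom (adjusted p = 0.0520), with no filter on low counts (adjusted p = 0.0518) and in 12 of 16 fits that left out a library (adjusted p up to 0.144). The mesothelial and fibroblast markers had a mean sum of 81.4 CPM in H_O against 36.1 CPM in L_O, with sums that overlapped between libraries. Of these 9 markers, edgeR and limma-voom called 0 in that comparison and DESeq2 called 2. An unadjusted edgeR p under 0.05 was seen for 4 of the 9 markers. In L_C the mean sum of the 9 markers was 75.3 CPM, where Cxcl5 stood at 2.02 to 3.79 CPM. H_C replicate 3, where that sum was 217 CPM, held 13.2 CPM of Cxcl5, and the other H_C libraries held 1.52 to 3.57 CPM. The part of these cells in the Cxcl5 values was not tested. In H_C against L_C, where edgeR called 12.8% of all entries, edgeR, DESeq2 and limma-voom called 0 of the 14. An unadjusted edgeR p under 0.05 was seen for 2. The median log2 fold change of the 14 was -0.10 in H_O against H_C, -0.52 in L_O against L_C, -0.05 in H_C against L_C and 0.41 in H_O against L_O.

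Of 23 chemokine receptor genes, 11 were tested. In H_O against H_C 1 rose and 6 fell, where 10.4% of all entries rose and 11.5% fell. In L_O against L_C 1 rose and 8 fell, where 12% of all entries rose and 13.8% fell. Ccr1 binds Ccl6 and Ccl9, and also Ccl5, which fell with ox-LDL at both glucose levels. Ccr1 rose to 106 CPM in H_O against 46.3 CPM in H_C (1.19 ± 0.07, adjusted p = 1.14e-09). In low glucose Ccr1 rose to 117 CPM in L_O against 80.7 CPM in L_C (0.54 ± 0.07, adjusted p = 1.43e-05). The difference between these effects was 0.65 ± 0.10 (adjusted p = 0.0381), a call that DESeq2 also made. It was lost under limma-voom (adjusted p = 0.0553), with a replicate block (adjusted p = 0.137) and in 12 of 16 fits that left out a library, where the adjusted p reached 0.146. Ccrl2, which binds chemerin and does not signal, fell to 40.8 CPM in H_O against 126 CPM in H_C (adjusted p = 1.1e-10), and to 41.0 CPM in L_O against 116 CPM in L_C (adjusted p = 2.76e-10). Ccr2, which binds Ccl2 and Ccl7 and was named after its values were seen, fell to 2.27 CPM in H_O against 4.65 CPM in H_C (adjusted p = 0.00215), and to 2.83 CPM in L_O against 8.08 CPM in L_C (adjusted p = 4.52e-05). In H_C against L_C, where 5.02% of all entries rose and 7.75% fell, 2 of the 11 rose and 3 fell. Ccr1 and Ccr2 were among those that fell. In H_O against L_O Cxcr4 rose and Cxcr2 fell, where 2.71% of all entries rose and 3.39% fell. Cxcr4 averaged 163 CPM in H_O against 105 CPM in L_O. Cxcr2 was near the detection limit, at 0.0341 CPM in H_O, where 3 libraries had no read, against 0.343 CPM in L_O.

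Genes that control chemokine transcription were counted in 3 lists. The first held 12 tested genes of interferon reception and response (receptors, STAT and IRF factors). Of these, 5 fell and none rose in H_O against H_C, where 11.5% of all entries fell and 10.4% rose. In L_O against L_C 9 fell and none rose, where 13.8% of all entries fell and 12% rose. Irf1, a factor that acts on Cxcl10 and Ccl5, stood at 71.5 CPM in H_O against 136 CPM in H_C (adjusted p = 0.000329) and at 90.3 CPM in L_O against 250 CPM in L_C (adjusted p = 1.95e-06). In H_C against L_C, where 7.75% of all entries fell and 5.02% rose, 8 of the 12 fell and none rose. Ccl5 was higher there and Cxcl10 did not pass. In H_O against L_O, where 3.39% of all entries fell, 1 of the 12 fell, Ifnar1 (-0.19 ± 0.05, adjusted p = 0.0177).

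Of 17 genes that belong to or restrain the NF-kB pathway, 3 rose and 8 fell in H_O against H_C. Over all entries 10.4% rose and 11.5% fell there. In L_O against L_C 1 rose and 10 fell, where 12% of all entries rose and 13.8% fell. Tnip3, which encodes a partner of the inhibitor A20, fell by 1.12 ± 0.16 in H_O against H_C and by 1.06 ± 0.16 in L_O against L_C on the log2 scale. Traf1, an adaptor that NF-kB itself induces, fell by 0.83 ± 0.12 in H_O against H_C and by 0.92 ± 0.13 in L_O against L_C. Zfp36, which encodes a protein that binds AU-rich stretches and speeds mRNA decay, fell to 38.5 CPM in L_O against 66.8 CPM in L_C (adjusted p = 6.2e-05). In H_C against L_C Tnfaip2 rose and Zfp36 fell, 2 of 17 genes, near the 12.8% of all entries called there. In H_O against L_O, where edgeR called 6.11% of all entries, edgeR and limma-voom called 0 of the 17 and DESeq2 called 1. An unadjusted edgeR p under 0.05 was seen for 5.

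Among 12 tested AP-1 and immediate-early genes, 3 rose and 5 fell in H_O against H_C. Over all entries 10.4% rose and 11.5% fell there. In L_O against L_C 3 rose and 6 fell, where 12% of all entries rose and 13.8% fell. Fos, a subunit of AP-1, rose to 28.1 CPM in H_O against 10.5 CPM in H_C (1.41 ± 0.12, adjusted p = 7.3e-08) and to 25.7 CPM in L_O against 10.6 CPM in L_C (1.28 ± 0.12, adjusted p = 2.4e-07). Atf3, a repressor of inflammatory genes in macrophages, fell to 197 CPM in H_O against 356 CPM in H_C (adjusted p = 1.09e-06) and to 214 CPM in L_O against 339 CPM in L_C (adjusted p = 1.91e-05). In H_C against L_C 3 fell and none rose, where 7.75% of all entries fell and 5.02% rose. In H_O against L_O, where 3.39% of all entries fell, Egr2 alone fell (-0.37 ± 0.07, adjusted p = 0.00471).

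Summed markers of other leukocytes also differed in level between some of these groups. The 8 markers of small peritoneal macrophages and monocytes, a list that also holds Ccr2, had sums that overlapped between no groups. They summed to 363 to 405 CPM in H_O, 479 to 522 in L_O, 758 to 794 in H_C and 988 to 1062 in L_C. Itgax and Clec12a made up most of these sums, with means of 291 and 83.3 CPM in H_O and 380 and 108 CPM in L_O. The other markers of the list reached at most 9.88 CPM in a library. Of the eosinophil markers, 3 of 5 were in the table. They summed to 4.70 to 5.76 CPM in H_O, 3.73 to 5.04 in L_O, 19.7 to 23.6 in H_C and 14.2 to 20.7 in L_C. Nearly all of this was Siglecf, since Ccr3 and Il5ra reached at most 0.237 and 0.212 CPM in a library. Dendritic cell markers, 5 of 7 in the table, summed to 1.26 to 1.66 CPM in H_O, 0.839 to 2.20 in L_O, 2.41 to 3.51 in H_C and 3.25 to 4.50 in L_C. B cell markers, 5 of 6 in the table, stayed between 0.76 and 2.36 CPM in all libraries, and the 2 mast cell markers in the table, Cpa3 and Kit, between 0 and 0.493 CPM. The part of these cells in the chemokine values was not tested.

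**Figure D5:**
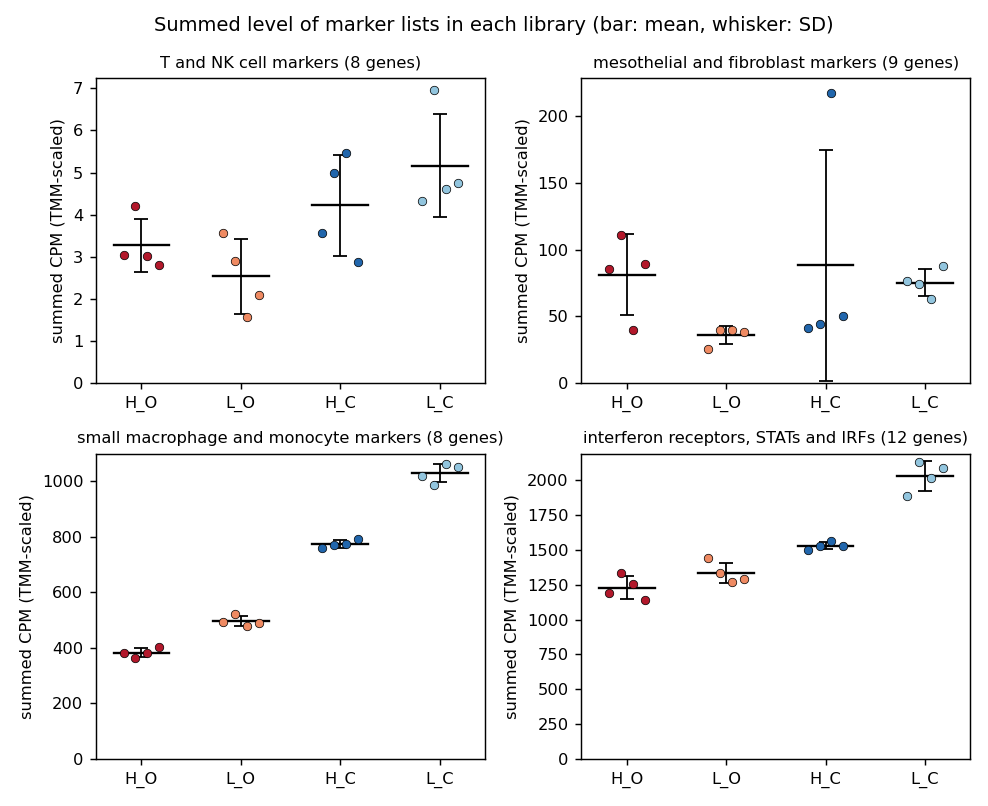
Summed CPM of 4 gene lists in each library (points), with the mean (bar) and SD (whisker) of each group of 4. The T and NK cell sum stays under 7 CPM, the mesothelial and fibroblast sum reaches 217 CPM in H_C replicate 3, and the small macrophage and monocyte sum and the interferon list are lowest in the groups with ox-LDL.

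Genes with the nearest profile over the 16 libraries were sought among protein-coding genes whose log2 CPM averaged 3 or more, for each chemokine called in a pairwise comparison. Likeness was the mean absolute difference between the log2 profiles, each centred on its own mean, and part of it comes from the groups that all genes share. Cxcl10 lay nearest to Gbp3 (0.54) and Ifit1 (0.57), both induced by interferons. Ccl5 lay nearest to Fbxo32 (0.23), a subunit of a ubiquitin ligase, and Slc27a6 (0.25), a fatty acid transporter. Ccl2 lay nearest to Ehd1 (0.27), of endosome recycling, and Spred2 (0.28), a brake on ERK signalling. For Ccl9 they were C5ar1 (0.16), the receptor of complement C5a, and Sh3bp5 (0.16), and for Ccl6 Itgam (0.09), the CD11b integrin, and Mrpl42 (0.09). Ccl4 lay nearest to Npc2 (0.12) and Pcyt1a (0.14), and Ccl3 to Zmiz1 (0.08) and Sec24b (0.08).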

How the data were processed

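The values are raw counts, whole numbers for each gene entry and library, which the authors deposited as 1 table covering all 16 libraries. The submitters' processing notes list HISAT2, DESeq2 and the build mm10 but give neither versions nor roles, and the counting tool, annotation and strand setting are not given in the sources used here. Without a strand setting, reads of Ccl2, Ccl6 and Cxcl10 cannot be told apart from those of the opposite-strand genes that overlap them in GENCODE M21, none of which has an entry of its own. Groups came from the labels. The members, lists and tests were chosen with earlier results of these data known.

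The test was the two-sided quasi-likelihood F test of edgeR 4.0.16 under R 4.3.3 (glmQLFit and glmQLFTest), with TMM factors, the filterByExpr filter by group and a mean for each of the 4 groups. All 16 libraries shared an estimate of the spread (12 residual degrees of freedom). Of 15871 entries, 13527 were tested, with Benjamini-Hochberg adjustment across all of them and a threshold of 0.05. SE is the log2 fold change over the root of its F statistic. Cxcl10 reached the filter's level in 9 libraries, 5 of them outside L_C. The alternatives were RLE and upper-quartile factors, no scaling beyond library totals, no filter, a filter of 1 CPM in 4 samples, DESeq2 1.42.0, limma-voom (limma 3.58.1), a replicate block, fits of the 8 libraries compared and leaving out each library. The fit was tested on simulated data. All 9 chemokines were named, with up to 4 genes of each list by smallest adjusted p in a comparison, and marker lists were summed.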

Additional observations from a re-analysis of the deposited data

Results flagged for a closer look

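Of 36 groups of 4 libraries (9 genes in 4 groups), 4 held a library far from the other 3, past Dixon's 95% critical value, with gaps to the nearest library of 0.855 to 0.884 of the range of the group. Chance alone gives this in about 1 of 20 groups. Ccl3 stood at 46.9 CPM in L_C replicate 4, where the others lay between 26.4 and 28.9 CPM, and this library also had the highest mitochondrial share. Ccl3 stood at 24.4 CPM in L_O replicate 4 (others 21.8 to 22.2 CPM). Ccl6 stood at 646 CPM in H_C replicate 3 (others 557 to 570 CPM), the library with the highest sum of mesothelial and fibroblast markers. Ccl9 stood at 32.6 CPM in L_C replicate 3 (others 17.3 to 19.04 CPM), where Ccl2 was the highest of L_C as well. The part of these properties in the values was not tested. The effect of ox-LDL on the receptor gene Ccr1 differed between glucose levels, by 0.65 ± 0.10 on the log2 scale in the edgeR test of that difference (high minus low glucose, adjusted p = 0.0381). This call was lost under limma-voom, with a replicate block and in 12 of 16 fits that left out a library.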

How the results depend on the processing

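No direction of a call for the 9 chemokines turned under any alternative, and of 1109 values for single genes 1086 kept their side of the threshold, 11 lost and 12 gained a call. Their 14 calls all held with RLE factors, upper-quartile factors, no scaling, no filter, DESeq2 and limma-voom, and those losing a call elsewhere were Ccl2, Ccl3, Ccl4 and Cxcl10 in L_O against L_C. With the 2 groups compared fitted alone, Ccl2 (adjusted p = 0.0643) and Ccl3 (adjusted p = 0.0503) lost the call in L_O against L_C, the chemokine calls in H_O against L_O numbered 2 in place of 1, and calls over all entries were 1619 in place of 826 there and 914 in place of 1728 in H_C against L_C. Ccl6 in L_O against L_C gained a call in 6 alternatives (adjusted p from 0.00513 to 0.0475), and Ccl2 in H_C against L_C gained one without H_C replicate 3 (log2 fold change -1.004, adjusted p = 0.0306). The filter of 1 CPM left Cxcl10 untested.

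For the difference of the ox-LDL effects, DESeq2 called 96 entries in all, 1 of them among the 9 chemokines, against 2 and 0 in edgeR, and limma-voom called 0. Leaving out each library in turn gave 0 to 53 entries for that difference (0 chemokines), 526 to 1763 entries and 1 to 2 chemokines for H_O against L_O, 4 to 7 chemokines for L_O against L_C, 5 to 6 for H_O against H_C and 2 to 3 for H_C against L_C. The highest counts of entries came without L_C replicate 4 in every comparison, and the count for H_O against L_O was 526 without L_O replicate 1 and 549 without L_O replicate 4. With no scaling, entries higher and lower numbered 2857 and 1392 in L_O against L_C (1623 and 1867 with TMM) and 2176 and 1166 in H_O against H_C (1406 and 1556 with TMM), while every call for the 9 chemokines held. Same-numbered libraries did not deviate together (correlation of deviations over 0.1 in 2 of 24 pairs), and the replicate block left 6, 5, 2 and 1 chemokine calls in the pairwise comparisons, with 0 entries called for the difference of effects. Few reads limit Cxcl10, Cxcl2 and Ccl7.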
